A study of Homo sapiens with 4 samples.

Results

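The genes described here are 9 targets of the transcription factor p53, namely CDKN1A, GDF15, PHLDA3, DDB2, SESN1, MDM2, TP53I3, BTG2 and RRM2B. They were chosen by symbol, with the values of some of them on these arrays already known. All probes that the platform annotation assigns to them were taken, 12 probes of 8 genes, among 10457 genes with a detected probe. BTG2 had no probe in the annotation used here and was not analysed. A probe counted as detected on an array where its deposited detection p-value was under 0.01, which held for 10 of the 12 probes on at least 1 array and for 6 on all 4.

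RNA came from H9, an established human embryonic stem cell line, kept on a coating of matrigel (a basement membrane extract) in E8, a defined medium, and sampled on day 2. The 4 groups were high density (above 90% confluence) with 20 mM added sodium bicarbonate, high density in unmodified E8 (control), low density (below 70% confluence) with the same bicarbonate, and low density in control medium. Each group was 1 Illumina array of 1 RNA sample from 1 cell line, so there is no spread within a group, no p-value is given, and all differences describe these 4 arrays. The title of the series asks what suppressing acidosis of the medium does for pluripotent cells in dense culture.

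When p53 is stabilised it binds DNA as a tetramer and raises transcription of genes that stop the cell cycle, repair DNA, adjust metabolism or start cell death. It also raises MDM2, the ubiquitin ligase that marks p53 for destruction, which closes a negative feedback loop. Human embryonic stem cells are known for a short G1 phase, little p21 in unstressed culture and readiness to undergo apoptosis after DNA damage. Several of these genes, GDF15 and CDKN1A among them, are also known to respond to inputs other than p53, such as the integrated stress response.

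All values below are log2 intensities after background correction and quantile normalization, and a difference of 1 on this scale is 2-fold. Before normalization the median intensity of an array lay between 117.4 and 166.6, lowest at high density with bicarbonate, and between 14128 and 15213 of 47293 probes were detected. Of 13 pluripotent stem cell markers with a probe, all were detected at high density with bicarbonate, all likewise in both control cultures, and 12 at low density with bicarbonate, where UTF1 was missing. Their summed linear level was 58229 at high density with bicarbonate, 51089 in the high-density control, 63717 at low density with bicarbonate and 57501 in the low-density control. None of 6 mesoderm and 7 trophoblast markers was detected on any array. NES was the 1 of 6 neuroectoderm markers detected, and KDR the 1 of 6 of blood and endothelium. Of 8 fibroblast markers 4 were detected on every array, with summed levels of 7513, 8459, 5221 and 6005 in the same order, while COL3A1, DCN, LUM and POSTN were not detected on any. These sums were higher at high density, as were most but not all of the p53 targets below (TP53I3 was lower), and their part in the differences was not tested. The sums follow mostly THY1, at a log2 level of 12.84 in the high-density control, where the next, COL1A2, had 9.06. With bicarbonate at high density THY1 (-0.32) and PDGFRB (-0.52) were lower than in control medium. COL1A1 (0.99) and COL1A2 (0.58) were higher. FOXA2, an endoderm factor, was detected in both low-density cultures and in neither high-density one, and the other 5 endoderm markers were detected nowhere. In bulk RNA, fewer cells that express a gene and less RNA per cell cannot be told apart.

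The promoters of 7 of the 9 genes are in RefSeq's table for GRCh38.p14, as 13 windows from 250 bases before a transcript's start to 50 after it. Some windows of MDM2 overlap almost wholly, so the same letters can count more than once among the 13. The p53 half-site is a 10-base motif with the core CWWG, where W is A or T, and a full site is a pair of them. It reads as the same pattern on both strands. The motif was present in 2 of the 13 windows, of DDB2 and SESN1, and in 6.63% of 35116 windows of all genes. In 1 window of DDB2 a pair of half-sites stood 1 base apart, an arrangement with a spacer of up to 13 bases that 0.0285% of all windows contain. The shorter letters CATG were found in 5 of the 13 windows and in 54.9% of all windows. The search asked for an exact match at all 10 bases, so p53 sites with a mismatch were missed, in these windows as well. No match thus says only that the exact motif is not in these windows. Sites of p53 are also known to lie farther upstream or in introns of several of these genes. Both matches are shown because they are the exact p53 motifs found in the set. That of DDB2 lies at chr11:47214975-47215004 on the plus strand, and that of SESN1 at chr6:109009018-109009047 on the minus strand (both GRCh38.p14, 30 bases, half-sites in capitals).
DDB2: gtttGAACAAGCCCtGGGCATGTTTggcgg
SESN1: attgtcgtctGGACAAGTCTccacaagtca

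The 250 bases before the starts of CDKN1A and GDF15 are shown because these genes differed most. They hold no exact match to the p53 half-site. Capitals mark GGGCGG on either strand (the letters bound by Sp1-like factors) and TATAAA on either strand (the TATA box). Both were searched after the array values were seen. CDKN1A (chr6:36678464-36678713, plus strand, GRCh38.p14) holds GGGCGG at 4 places, at -104, -94, -45 and -40 from the start, of which the last pair overlap. GDF15 (chr19:18385908-18386157, plus strand, GRCh38.p14) holds it at -119 and -70, once on each strand, and TATAAA at -29. GGGCGG is in 42.6% of all such stretches and in 10 of the 13 windows of these genes, some of which overlap. TATAAA is in 10.7% of all such stretches and in 1 window.
CDKN1A: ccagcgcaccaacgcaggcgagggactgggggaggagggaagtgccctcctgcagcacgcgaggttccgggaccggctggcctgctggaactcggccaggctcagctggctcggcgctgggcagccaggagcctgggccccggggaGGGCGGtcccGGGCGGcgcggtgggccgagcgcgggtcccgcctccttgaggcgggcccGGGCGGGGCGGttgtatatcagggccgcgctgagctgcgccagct
GDF15: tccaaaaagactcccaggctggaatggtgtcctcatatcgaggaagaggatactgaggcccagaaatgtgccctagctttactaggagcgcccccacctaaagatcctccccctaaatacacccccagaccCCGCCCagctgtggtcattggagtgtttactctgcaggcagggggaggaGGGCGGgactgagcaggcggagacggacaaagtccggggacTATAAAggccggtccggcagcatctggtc

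The first question was how dense and sparse cultures differed in control medium. Of the 6 genes detected on both control arrays, 5 exceeded 2-fold in the direction of dense culture and 1, TP53I3, exceeded it in the other. GDF15 was higher by a bound. Among all 8936 genes measured in this comparison, 3.77% were at least 2-fold higher and 2.84% lower, and of 1110 genes detected on 1 of both arrays 4.95% were 2-fold higher by a bound. The genes were chosen with this contrast known, so their count describes them and supports nothing further. Their median difference was 1.78, against 0.01 over all measured genes. With arrays set to equal medians the median of all genes was -0.06 and 264 genes were higher and 365 lower, against 337 higher and 254 lower with quantiles, while the count for the set was the same. Without background correction, or with the mean of probes, RRM2B fell below 2-fold (0.92 and 0.88).

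The second question was what added bicarbonate did in dense culture. Of 8 genes detected on both high-density arrays, 3 were at least 2-fold lower with bicarbonate (CDKN1A, GDF15 and PHLDA3) and 0 were 2-fold higher. The corresponding shares of 9188 measured genes were 0.599% lower and 0.522% higher. The median difference of the 8 genes was -0.82, against 0.02 over all genes, and 6 of the 8 were below 0. When arrays were set to equal medians, the median of all genes shifted to -0.14 and the split of all 2-fold genes to 25 higher and 85 lower, against 48 higher and 55 lower with quantiles. The same 3-gene count was obtained with that scaling. Without background correction the count was 2, as PHLDA3 stood at -0.81. Both of these comparisons use the high-density control array, so a deviation of that array alone would enter them with opposite signs. The count of 3 also describes genes chosen with some values on these arrays known, and supports nothing further.

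The third question was what bicarbonate did in sparse culture. None of the 5 genes detected on both low-density arrays was 2-fold apart, and their differences lay between -0.29 and 0.38. Of 8973 measured genes 0.0892% were 2-fold higher and 0.1% lower in this comparison. With equal medians the median of all genes was -0.11, with 2 genes higher and 34 lower in place of 8 and 9.

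**Figure D1:**
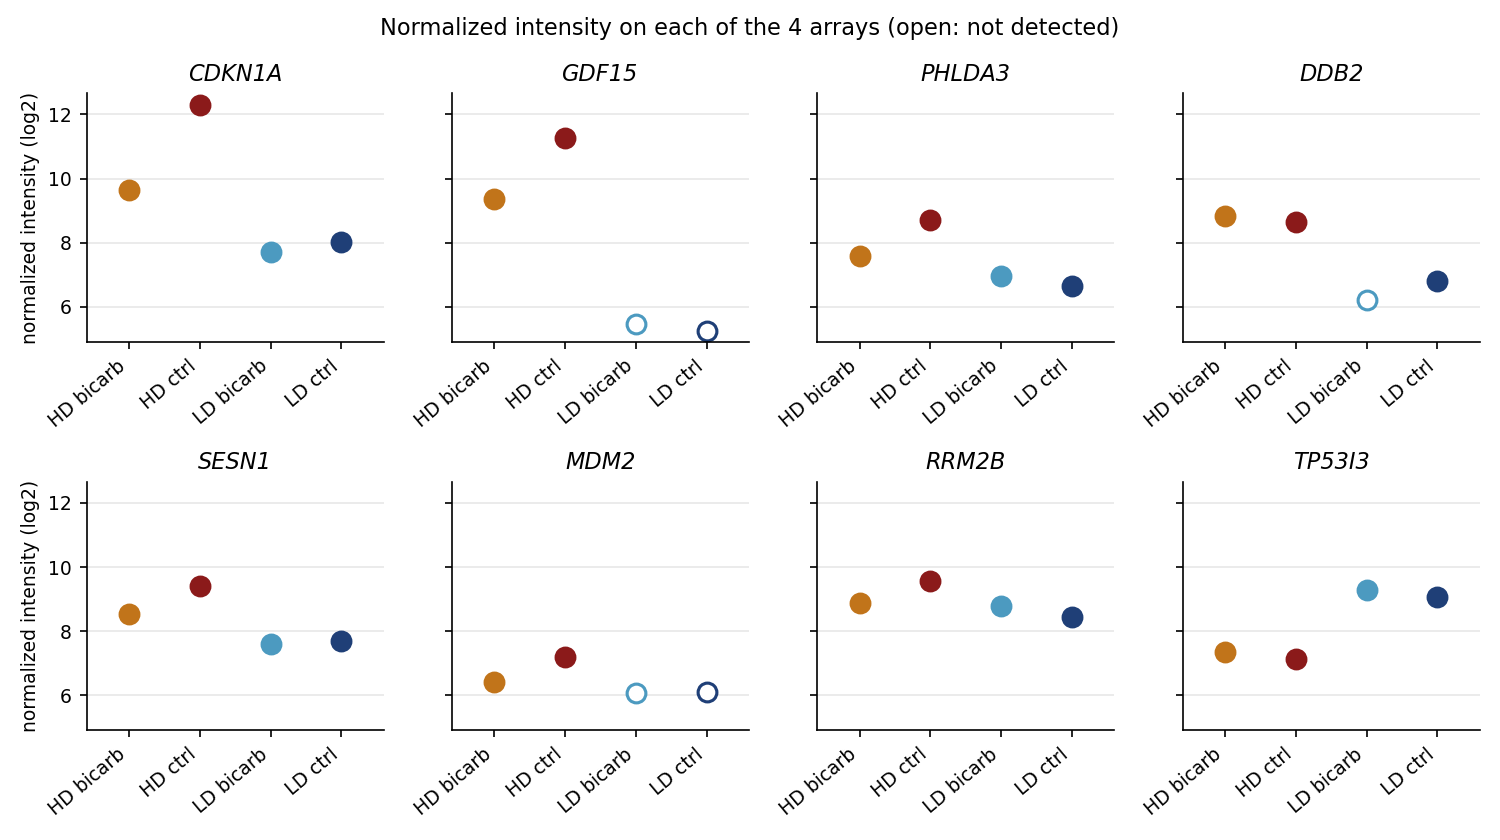
Normalized log2 intensity of the brightest probe of 8 p53 targets on each of the 4 arrays, 1 point per array, in the order high density with bicarbonate, high-density control, low density with bicarbonate and low-density control. Open points were not detected. In 7 of the 8 panels the high-density control is above both low-density cultures, and in that of TP53I3 it is below them.

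CDKN1A encodes p21, which binds and inhibits complexes of cyclins with cyclin-dependent kinases and arrests the cell cycle. Its detected probe (ILMN_1784602) gave 9.63 at high density with bicarbonate, 12.3 in the high-density control, 7.72 at low density with bicarbonate and 8.02 in the low-density control. The deposited intensities behind these values were 694.2, 5814.5, 315.8 and 438.9. The high-density control stood far above the other 3 arrays, and the bicarbonate culture of the same density lay between it and both sparse cultures. In control medium the gene was 19.4-fold higher at high than at low density (log2 difference 4.28), rank 1 of 8936. At high density it was 6.36-fold lower with bicarbonate than without (-2.67), rank 2 from the lowest of 9188, and at low density the difference was -0.29. With bicarbonate in both cultures it was still 3.75-fold higher at high density (1.91). The other CDKN1A probe (ILMN_1787212), which the annotation assigns to a different transcript record of the gene, was not detected on any array, with detection p-values between 0.6429 and 0.9169. All values of CDKN1A thus rest on 1 probe.

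GDF15 is a secreted member of the TGF-beta superfamily whose level in blood rises in many kinds of cell stress, and which acts on a receptor of the brainstem. Its probe (ILMN_2188862) gave 9.37 at high density with bicarbonate and 11.27 in the high-density control. At low density it gave 5.47 with bicarbonate and 5.26 in control medium, where its detection p-values were 0.0922 and 0.1169. The gene was therefore read well above background only in the dense cultures. Its deposited intensity was 599.9 at high density with bicarbonate, 2869.1 in the high-density control, 159.1 at low density with bicarbonate and 163.7 in the low-density control. Bounds were set with the lowest value of a detected probe on the dim array, between 6.31 and 6.53 over the 4 arrays. GDF15 was at least 29.8-fold higher at high than at low density in control medium. With bicarbonate in both cultures it was at least 7.18-fold higher at high density. At high density it was 3.73-fold lower with bicarbonate than without (-1.90), rank 3 from the lowest of 9188. No fold is given for bicarbonate at low density, where it missed the detection limit in both cultures.

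PHLDA3 competes with the kinase AKT for membrane lipids and so dampens a survival signal. It gave 7.57 at high density with bicarbonate, 8.71 in the high-density control, 6.96 at low density with bicarbonate and 6.66 in the low-density control. The order of the arrays was that of CDKN1A except that both sparse cultures changed places. PHLDA3 was 4.13-fold higher at high than at low density in control medium (2.05) and 2.20-fold lower with bicarbonate than without at high density (-1.14). At low density the bicarbonate difference was 0.30, in the opposite direction and small.

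SESN1 encodes a sestrin, a stress protein that restrains the growth kinase complex mTORC1. It gave 8.55 at high density with bicarbonate, 9.42 in the high-density control, 7.61 at low density with bicarbonate and 7.70 in the low-density control. Both dense cultures were above both sparse ones. SESN1 was 3.30-fold higher at high density in control medium (1.72) and 1.83-fold lower with bicarbonate at high density (-0.87), which misses 2-fold. Sparse cultures differed by -0.09.

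DDB2 recognises ultraviolet damage in DNA for nucleotide excision repair, and its window holds the pair of half-sites printed above. It gave 8.82 at high density with bicarbonate, 8.64 in the high-density control, 6.22 at low density with bicarbonate and 6.79 in the low-density control. The value at low density with bicarbonate was not detected (detection p 0.0182). DDB2 thus stood high in both dense cultures, and added bicarbonate made little difference there (0.18), unlike CDKN1A, GDF15 and PHLDA3. It was 3.6-fold higher at high density in control medium (1.85) and at least 4.89-fold higher at high density when both cultures had bicarbonate.

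RRM2B encodes the small subunit of ribonucleotide reductase that p53 induces and that supplies DNA precursors for repair outside S phase. Its brightest probe (ILMN_2170595) gave 8.89 at high density with bicarbonate, 9.57 in the high-density control, 8.80 at low density with bicarbonate and 8.43 in the low-density control. The high-density control was the highest of the 4. The gene was 2.20-fold higher at high density in control medium (1.14) and 1.60-fold lower with bicarbonate at high density (-0.68). Its second probe (ILMN_1698231) gave 6.94, 7.59, 5.82 and 6.96 in the same order, the third of these not detected, with corresponding differences of 0.62 and -0.64. At low density the bicarbonate difference was 0.38 on the brightest probe, and the second probe was at least 1.35-fold lower with bicarbonate, the opposite direction. Both probes put the high-density control highest, and the second kept the density difference below 2-fold.

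MDM2, the ubiquitin ligase and inhibitor of p53, was near background on this platform. Its brighter probe (ILMN_1736829) gave 6.42 at high density with bicarbonate, 7.18 in the high-density control, 6.07 at low density with bicarbonate and 6.09 in the low-density control. It was detected in both dense cultures, with a p-value of 0.0078 with bicarbonate, just inside the limit, and missed it in both sparse ones, with 0.0247 with bicarbonate and 0.0156 in control medium. It was 1.70-fold lower with bicarbonate at high density (-0.76) and at least 1.75-fold higher at high than at low density in control medium. The other MDM2 probe was detected on no array.

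TP53I3, also called PIG3, encodes a quinone oxidoreductase linked to oxidative stress in apoptosis, and it was the exception. Its brightest probe (ILMN_2358919) gave 7.34 at high density with bicarbonate, 7.13 in the high-density control, 9.28 at low density with bicarbonate and 9.08 in the low-density control. Both dense cultures were thus well below both sparse ones, and bicarbonate made little difference at either density (0.22 at high, 0.20 at low). The gene was 3.86-fold lower at high density in control medium (-1.95), rank 9 from the lowest of 8936, and 3.82-fold lower with bicarbonate in both cultures (-1.93). Its second probe (ILMN_1651967) gave 6.81, 6.46, 6.61 and 6.74, a density difference of -0.27 in control medium and of 0.20 with bicarbonate. In the high-density control its p-value was 0.0091, just inside the limit. The annotation assigns the probes to different transcript records, and the large difference was read by 1 of them only.

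**Figure D2:**
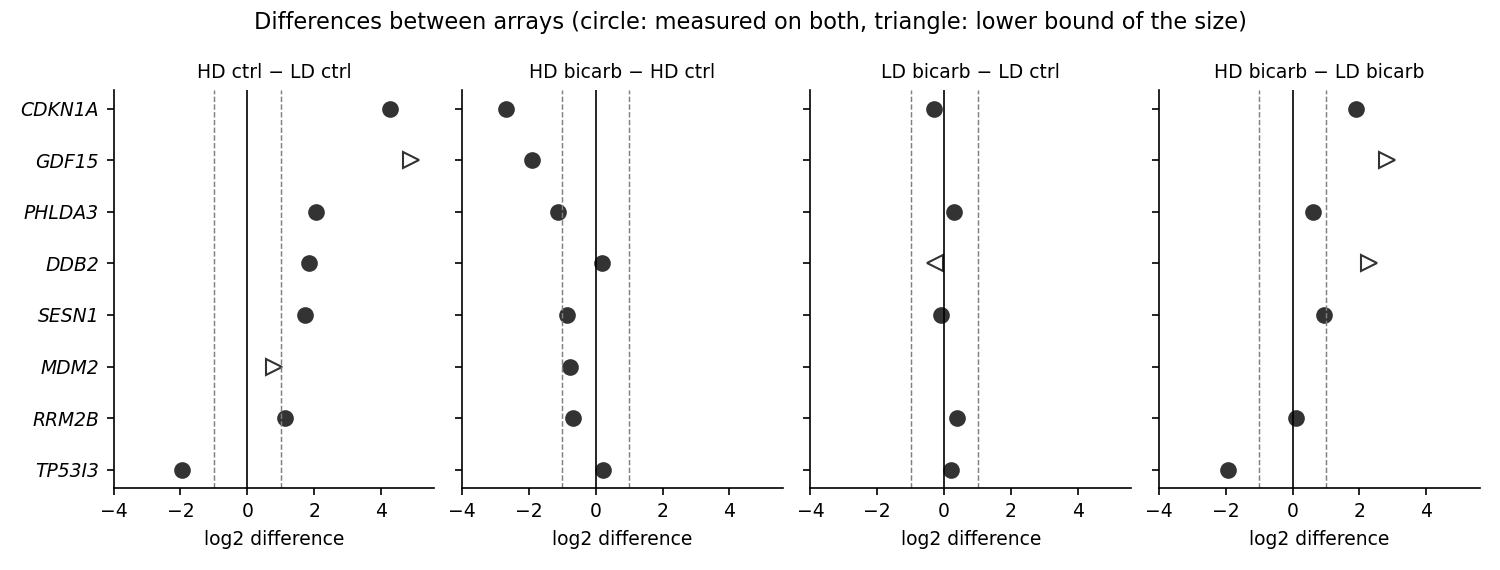
Log2 differences of 8 p53 targets in 4 comparisons, each panel titled with its subtraction. Circles were measured on both arrays, triangles are lower bounds of the size, and dashed lines mark 2-fold. In control medium 6 of the genes lie above the upper dashed line for density and TP53I3 below the lower one, and the low-density bicarbonate panel stays inside the dashed lines throughout.

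The bicarbonate difference at high density was then set against that at low density for the 5 genes detected on all 4 arrays. The difference of both differences was -2.38 for CDKN1A, -1.44 for PHLDA3, -1.05 for RRM2B, -0.78 for SESN1 and 0.02 for TP53I3. So 3 of the 5 were at least 2-fold lower with bicarbonate at high density relative to low density, where 2.43% of 8554 genes were. The share of genes at least 2-fold the other way was 1.93%, and none of the 5 was among them. The place of RRM2B in this count rests on its brightest probe and on the setting. The mean of its probes gave -0.28, its second probe, not detected at low density with bicarbonate, gave 0.49, and its brightest probe gave -0.99 with an offset of 50 and also with equal medians. The count was 2 under these last settings and with the mean of probes or the filter on dim probes, and 1 without background correction. No test of this was possible with 1 array per group. The genes were chosen with some values on these arrays known, and the high-density control array enters here too. The count thus describes them and supports nothing further.

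With bicarbonate in both cultures, high density was also compared with low density. Of 5 measured genes CDKN1A was 2-fold higher and TP53I3 2-fold lower, while GDF15 and DDB2 were higher by a bound. Here 3.43% of 8836 genes were 2-fold higher and 2.93% lower, and 5.21% of 1306 genes detected on 1 of both arrays were higher by a bound. With equal medians the median of all genes was -0.11, with 270 genes higher and 346 lower in place of 303 and 259. SESN1 (0.94), PHLDA3 (0.61) and RRM2B (0.09) stayed below 2-fold.

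Dense culture with bicarbonate was finally compared with sparse culture in control medium. Of 6 measured genes, DDB2 (2.03) and CDKN1A (1.61) were 2-fold higher and TP53I3 (-1.73) was 2-fold lower. GDF15 was at least 7.99-fold higher, while PHLDA3 (0.91), SESN1 (0.85) and RRM2B (0.46) were above 0 by less than 2-fold. Among 9127 measured genes 2.56% were higher and 1.45% lower, and 3.22% of 1055 were higher by a bound. With equal medians the split of all genes was 123 higher and 312 lower in place of 234 higher and 132 lower, and the same number of p53 targets, 2 higher and 1 lower, was obtained. In this comparison the median of all genes shifted to -0.21.

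Lists of p53 targets by role came from textbook knowledge, but were chosen with earlier results of these data known. Counts from them describe these genes and support nothing further. The counts by role in the paragraphs below also include genes of the set of 9. Of the p53 targets other than the 9, 42 had a probe. In control medium 10 of 28 measured exceeded 2-fold towards dense culture and 0 towards sparse culture, with a median of 0.74 against 0.01 over all genes, and the share of all genes that were higher is the 3.77% given above. This count was 3 without background correction, 5 with an offset of 50 and 6 with the authors' deposited values. At high density with bicarbonate against control, 3 of 30 were 2-fold lower and none higher (median -0.21, all genes 0.02), against 0.599% of all genes lower and 0.522% higher. That count was 1 without background correction, and 2 with an offset of 50 or with the authors' values. At low density 0 of 26 were 2-fold apart, against 0.0892% of all genes higher and 0.1% lower. On second probes 1 of 8 was 2-fold higher there, that of CCNG1 (1.28), against 8 of 1867 genes.

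The cell cycle targets include CDKN1A of the described set. All 7 measured were above 0 on their brightest probe in the density comparison in control medium, where 50.5% of all genes were. All 7 were below 0 in the bicarbonate comparison at high density, where 47.9% of all genes were (66.4% with equal medians). FBXW7, a ubiquitin ligase subunit looked up after its values were seen, was the weakest of them, at 0.21 and -0.02, and its second probe gave -0.35 and 0.17. With the mean of probes the counts were 6 of 7 in both comparisons. GADD45A, a growth arrest and DNA damage protein, had 7.96 at high density with bicarbonate, 9.27 in the high-density control, 7.55 at low density with bicarbonate and 7.41 in the low-density control. It was thus 1.87 higher with density in control medium and 1.31 lower with bicarbonate at high density (difference -1.31), and its second probe gave 1.81 and -1.14. CCNG1, cyclin G1, which feeds back on p53 through a phosphatase, was higher by 1.21 at high density and stood at -0.61 with bicarbonate there. IER5, an immediate early gene, stood at 1.08 and -1.20 in these comparisons. SERTAD1, a regulator of CDK4, was 2-fold lower with bicarbonate (-1.0).

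The cell death list divided more. Of 11 measured, 3 were 2-fold higher and 1 lower at high density in control medium, and 1 was 2-fold lower with bicarbonate at high density. These counts include genes of the described set. PHLDA3 was 1 of the 3 higher and the 1 lower with bicarbonate, and TP53I3 was the 1 lower by density. Over all genes the shares were 3.77% higher and 2.84% lower by density, and 0.599% lower with bicarbonate. PMAIP1, the BH3-only protein NOXA, had 11.2 at high density with bicarbonate, 11.73 in the high-density control, 10.4 at low density with bicarbonate and 10.57 in the low-density control, a density difference of 1.16 in control medium. TNFRSF10B, a receptor of the death ligand TRAIL, was at 1.07 with density, and its second probe gave -0.25. BBC3, the BH3-only protein PUMA, had a density difference of 0.90 and BAX, the pore-forming effector, of 0.24. Both were looked up after their values were seen.

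Of 5 measured genes for DNA repair and nucleotide supply, 3 were 2-fold higher at high density in control medium, namely GADD45A, DDB2 and RRM2B, where 3.77% of all genes were, as for the counts that follow. XPC, the damage sensor of excision repair that works beside DDB2, stood at -0.04 (named after its value was seen). Among 7 measured genes of metabolism, redox and other roles, 4 were 2-fold higher, SESN1, its paralogue SESN2 (1.08), the hydrolase CMBL (1.13) and NINJ1 (1.02), a membrane protein of cell rupture. TRIM22 was at least 2.04-fold higher. Among feedback targets CCNG1 and RPS27L (1.01) were 2-fold higher of 5 measured. THBS1, the secreted thrombospondin, stood at 1.17.

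**Figure D3:**
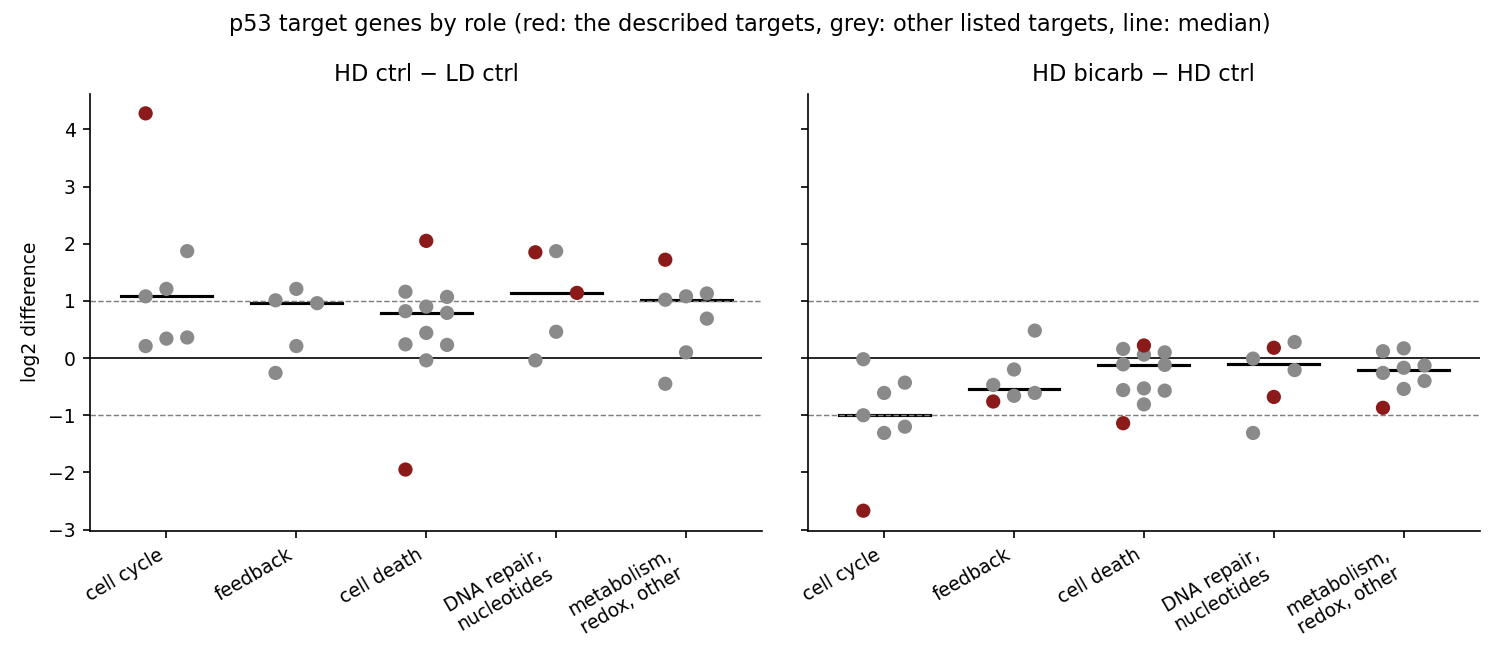
Log2 differences of p53 target genes measured on both arrays, by role, for dense against sparse cultures in control medium (left) and bicarbonate against control at high density (right). Red points are genes of the set of 9, grey points other listed targets, bars medians and dashed lines 2-fold; GADD45A and CCNG1 appear in 2 roles each, and the secreted targets are not drawn. Medians lie between 0.79 and 1.14 on the left and between -1.0 and -0.11 on the right.

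ZMAT3, an RNA-binding target of p53, was singled out after its values were seen because its probes disagreed. The brightest gave 12.0 at high density with bicarbonate, 11.51 in the high-density control, 11.8 at low density with bicarbonate and 11.78 in the low-density control, a density difference of -0.26 in control medium. The second gave 8.50, 8.84, 6.69 and 7.08 in the same order (1.76), and the third 8.03, 8.93, 6.81 and 6.93 (2.00). By its weaker probes ZMAT3 thus followed the pattern of SESN1, and by its brightest it did not.

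The regulators of p53 and the paralogues of the set were looked at next. Of 10 measured regulators 0 were 2-fold apart on their brightest probe in any of the 5 comparisons. By density in control medium 3.77% of all genes were 2-fold higher and 2.84% lower, so a count of 0 among 10 says little. The second probe of CHEK2, looked up after its value was seen, gave -1.02 with bicarbonate at low density. There 0.1% of all genes were 2-fold lower. In control medium the median density difference of the regulators was -0.01. TP53BP1, a DNA break protein that binds p53, was at -0.64 and USP7, the deubiquitinase of MDM2 and p53, at -0.58. With bicarbonate at high density the deacetylase SIRT1 stood at 0.51 and the kinase HIPK2 at -0.45. These arrays measure transcripts, and the level of p53 protein, which is controlled largely through its stability, was not measured.

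Among the paralogues, RRM2, the S-phase counterpart of RRM2B in ribonucleotide reductase, had the reverse order. It gave 6.35 at high density with bicarbonate, 6.19 in the high-density control (not detected), 7.85 at low density with bicarbonate and 8.60 in the low-density control. It was at least 4.57-fold lower at high density in control medium, where RRM2B was 2.20-fold higher (of genes detected on 1 of both arrays 4.05% were lower by a bound), and RRM1, the large subunit shared by both, differed by -0.11. CDKN1C, the p57 member of the p21 family, was 2.58-fold higher at high density in control medium (1.37). BTG3, an antiproliferative relative of BTG2, stood at 1.13 there and at 1.37 on its second probe, and GDF3 was at least 2.32-fold lower. CDKN1B, the p27 member, was at 0.56 on its brightest probe and at 2.41 on the other. PHLDA1 was 2.36-fold higher with bicarbonate at high density (1.24), opposite to PHLDA3, but its second probe gave 0.01. RRM1, CDKN1B and the second probes were looked up after their values were seen.

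**Figure D4:**
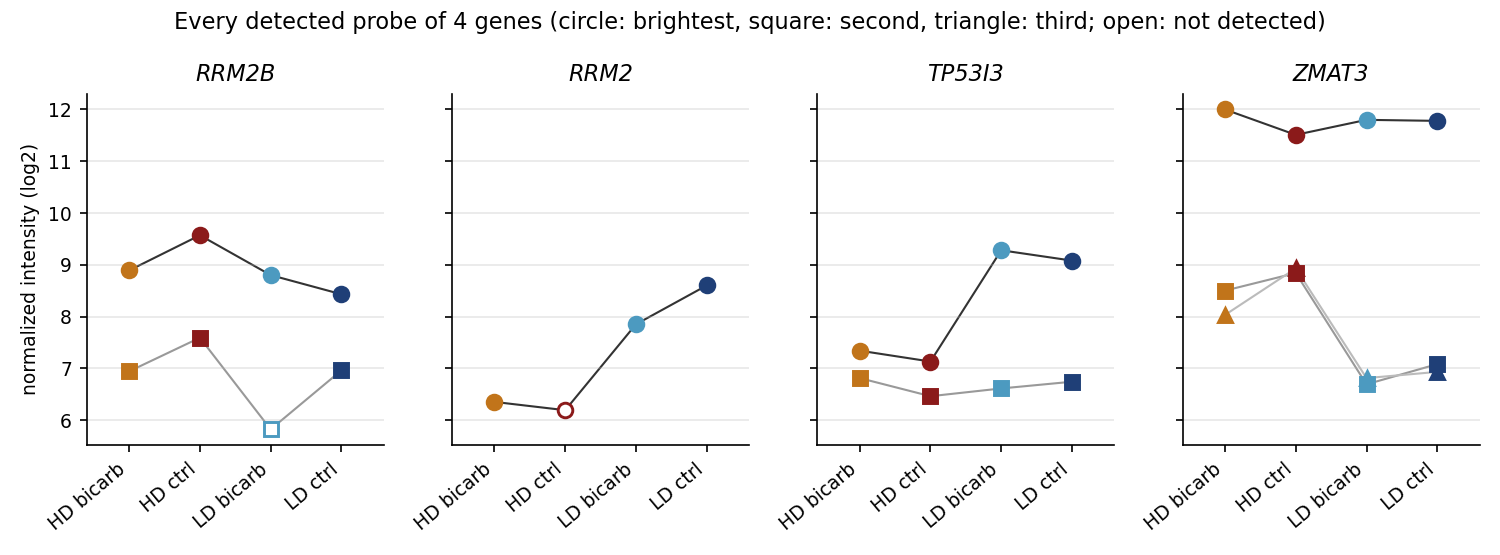
Normalized log2 intensity of every detected probe of RRM2B, RRM2, TP53I3 and ZMAT3 on the 4 arrays, with lines joining the values of 1 probe and open symbols for arrays where it was not detected. RRM2B peaks in the high-density control where RRM2 is at its lowest, and the probes of TP53I3 and of ZMAT3 run apart within a gene.

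The partners and downstream genes of p21 were also counted. Of 11 measured genes among the cyclins, kinases and PCNA that p21 binds, 1 was 2-fold lower at high density in control medium, cyclin E1, CCNE1, with 8.86 at high density with bicarbonate, 8.96 in the high-density control, 10.17 at low density with bicarbonate and 10.04 in the low-density control (-1.08), where 2.84% of all genes were 2-fold lower. It was about as low in the dense culture with bicarbonate, where CDKN1A was 6.36-fold lower than without. A link between CCNE1 and CDKN1A was not tested. Of 16 measured genes known to be lowered through p21 and the DREAM complex, 2 were 2-fold lower at high density, MCM5 (-1.26) and CDC25A (-1.17), and 1 was higher, ECT2 (1.03), against 2.84% of all genes lower and 3.77% higher. The median of that list was -0.15. With bicarbonate at high density 0 of the 16 were 2-fold apart, and E2F1, which was at least 2.21-fold higher with density in control medium, was at least 2.31-fold lower, as 1.04% of genes detected on 1 of both arrays were by 2-fold or more.

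Genes of other stress inputs on GDF15 and CDKN1A were counted as well. DDIT3, the transcription factor CHOP of the integrated stress response, had 9.84 at high density with bicarbonate, 8.41 in the high-density control, and 6.22 in both low-density cultures, where it was not detected. It was 1.43 higher with bicarbonate at high density, while GDF15 was 1.90 lower there (difference -1.90). CHAC1, which degrades glutathione, was likewise higher with bicarbonate (1.18). These were the 2 of 13 measured genes of the list that were 2-fold higher there, against 0.522% of all genes. Of the 13, 9 were below 0 in that comparison and 4 above, with a median of -0.22 against 0.02 over all genes. Below 0 were 47.9% of all genes, and 66.4% with equal medians. A link between these genes and GDF15 was not tested. ATF3, which is known to bind the GDF15 promoter, had 8.88 at high density with bicarbonate, 9.25 in the high-density control, 7.41 at low density with bicarbonate and 7.73 in the low-density control. JUN (2.33) and EGR1 (2.28) were higher at high density in control medium and stood at 0.36 and -0.19 with bicarbonate at high density. On their brightest probes all 13 measured genes of this list were above 0 in the density comparison, where 50.5% of all genes were, and with equal medians 12 of 13 were. Other probes were below 0 there, that of ATF4 at -0.26, that of FOXO3 at -0.17 and those of HIF1A at -0.47 and -0.12 (looked up after their values were seen).

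Genes most like CDKN1A over the 4 arrays were found by the Euclidean distance between log2 profiles, each centred on its own mean, among 8554 genes detected on all arrays. The nearest were the metallothionein MT1E (distance 1.44), the small nuclear RNA RN7SK (1.77), SYT7 (1.80), FAM72B (1.90), KLHL24 (1.91) and GPSM2 (1.94). MT1E had 8.33 at high density with bicarbonate, 9.87 in the high-density control, 7.32 at low density with bicarbonate and 6.75 in the low-density control. Of the set itself, PHLDA3 ranked 15 (2.11), SESN1 18 (2.18), RRM2B 350 (2.89) and TP53I3 8550 (5.44). The mean profile of the 5 members detected on all arrays was nearest to CAP2 (0.0779), SLIT2 (0.105), RBBP6 (0.107), SNORA8 (0.117), C17orf58 (0.191) and SDHAP2 (0.193). With 4 arrays such a ranking is a description only.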

How the data were processed

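RNA from 4 cultures was hybridised to Illumina arrays as biotin-labelled cRNA, per the labels' protocols. The authors deposited unnormalized intensities and a detection p-value for each probe and array, per the file headers. A second table deposited by the authors holds log2 values of these arrays, whose medians are all 6.02. How it was corrected and normalized was not stated in the labels or headers, and it served as an alternative.

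Intensities were corrected and quantile normalized with neqc (limma 3.58.1, R 4.3.3, offset 16), which infers the negative controls from the detection p-values. Further steps used matplotlib 3.10.9, scipy 1.17.1, pandas 2.3.3 and numpy 2.4.6 under Python 3.11.15. The procedure was tested on simulated data. A change shared by all genes would be removed by the quantile step. The platform annotation gave 1 symbol to 30098 of 47293 probes, several to 8 and none to 17187; 30059 matched a RefSeq gene ID. BTG2 had no probe there and was not analysed.

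A gene was its brightest probe among those detected on at least 1 array, and was measured in a comparison when detected on both arrays. A gene detected on 1 array got a bound: its value there, less the lowest detected value of the dim array or, if greater, what the dim probe itself read. Groups came from the sample titles. No test was run on single arrays, and the number of arrays limits the precision. Members and lists were chosen with earlier results of these data known. From each list the genes at least 2-fold apart were named, at most 4 per comparison, or else the 2 largest; other names are marked as chosen afterwards. Alternatives varied the background, offset, normalization, detection limit, dim-probe filter, probe and fold. Probe sequences were not used here.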

Additional observations from a re-analysis of the deposited data

Results flagged for a closer look

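PHLDA3 had bicarbonate differences of opposite sign at both densities, -1.14 at high and 0.30 at low density. The same held for RRM2B on its brightest probe, with -0.68 at high and 0.38 at low density, but not on its other probe, which gave -0.64 at high density and at least 1.35-fold lower with bicarbonate at low density. The mean of both probes gave -0.66 at high and -0.38 at low density. The weaker TP53I3 probe stood at 0.34 with bicarbonate at high density and at -0.13 at low density. That probe also had density differences of opposite sign, 0.20 with bicarbonate and -0.27 in control medium. Each of these pairs came from 1 array per group, and the difference between both effects was not tested.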

How the results depend on the processing

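No paired analysis was possible because each group is 1 array, so the groups share fewer than 2 replicate numbers. Some alternatives could not change the value of a p53 target. The wider detection limit and the filter on dim probes only altered which genes were kept. The mean of probes left genes with 1 detected probe as they were. Of 208 alternative values for 30 differences of single p53 targets, these included, 189 lay within the SD between probes of 1 gene. A further 17 moved by more, and 2 that had been 2-fold apart reversed. Those were TP53I3 on its second probe, 0.20 between densities with bicarbonate and 0.07 between dense bicarbonate and sparse control cultures. In all 5 alternative values changed sign, the other 3 from differences under 2-fold. For bicarbonate at low density RRM2B gave -0.38 in place of 0.38 with the mean of probes, one of them not detected in 1 culture, and TP53I3 -0.13 in place of 0.20 on its second probe. For dense bicarbonate against sparse control RRM2B gave -0.02 in place of 0.46 on its second probe. CDKN1A ranged between 3.78 and 4.28 for density in control medium and between -2.93 and -2.50 for bicarbonate at high density, and GDF15 between -2.12 and -1.73 for the same.

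Counts of p53 targets 2-fold apart depended mostly on probe and fold, by construction. Without background correction the count was 5 in place of 6 for density in control medium, with RRM2B at 0.92. It was 2 in place of 3 for bicarbonate at high density, with PHLDA3 at -0.81. The mean of probes also gave 5 for density in control medium, with RRM2B at 0.88. Second probes, present for few genes, gave 0 in place of 6 for density in control medium, 0 in place of 3 for bicarbonate at high density, 0 in place of 2 for density with bicarbonate, and 0 in place of 3 for dense bicarbonate against sparse control. A fold of 1.5 gave 6, 4 and 5 in the last 3 of these, and the mean of probes gave 1 for density with bicarbonate. The difference of both bicarbonate differences passed 2-fold for 3 genes, for 1 without background correction, for 0 on second probes, and for 2 with an offset of 50, equal medians, the filter on dim probes or the mean of probes.

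Over all genes, 591 were 2-fold apart by density in control medium: 194 without background correction, 351 with a mean log2 of at least 8, 149 on second probes and 2133 at 1.5-fold. For bicarbonate at high density 103 became 28, 59, 22 and 824 in that order, 62 with an offset of 50, 66 with the authors' values and 158 at a detection p of 0.05. For bicarbonate at low density 17 became 1 without background correction, 5 with the offset, 36 with equal medians, 8 with the authors' values, 44 at the wider detection limit, 8 with the mean filter and 334 at 1.5-fold. For density with bicarbonate 562 became 206, 360, 117 and 2073, and for dense bicarbonate against sparse control 366 became 125, 205, 77 and 1692, both in the first order. Filters and second probes leave fewer genes to count, and the cause was not tested otherwise. Probes near background, those of MDM2 and of GDF15 at low density, limit what can be read.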
